A study of Arabidopsis thaliana with 4 samples.

Results

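Indole glucosinolates are sulfur- and nitrogen-containing defence compounds made from tryptophan, and 10 Arabidopsis thaliana genes that build them or control the building were followed here. They are the entry enzymes CYP79B2 (AT4G39950) and CYP79B3 (AT2G22330), the core enzymes CYP83B1 (AT4G31500), SUR1 (AT2G20610) and UGT74B1 (AT1G24100), the ring hydroxylases CYP81F2 (AT5G57220) and CYP81F4 (AT4G37410), and the R2R3-MYB factors MYB34 (AT5G60890), MYB51 (AT1G18570) and MYB122 (AT1G74080). They were chosen by locus code for their known roles, though with earlier results of these data known, and make up 10 of the 23381 loci with at least 1 read. All 10 passed the filter on low reads of the tests and the filter on low levels of the ratios described here.

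RNA was sequenced from roots of 6-day-old seedlings, with about 500 seedlings pooled into each sample and 1 library per group. The 4 groups were the wild type Col and the mutant coi1-2, each kept without and with Al. The coi1-2 line carries a mutant allele of COI1, the F-box receptor of jasmonate, and is represented by a single line. All groups were grown in 2% MGRL nutrient solution at pH 5.0, 22 °C and 16 h of light, and then stood in that solution with 0 or 10 µM AlCl3. The treatment protocol gives 6 h in solution for both AlCl3 concentrations, the titles give 0 h for the groups without Al and 6 h for those with it, and the series' design text gives 24 h. Time in solution and Al therefore cannot be told apart if the titles are right. The study's title frames the comparison as a difference of the coi1-2 transcriptional response to Al from that of the wild type.

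The pathway starts when a cytochrome P450 of the CYP79B type turns tryptophan into indole-3-acetaldoxime, a branch point that also feeds camalexin and auxin. CYP83B1 oxidises the aldoxime, a sulfur donor is attached, SUR1 cleaves the adduct to a thiohydroximate, UGT74B1 adds glucose and sulfotransferases finish the core. P450s of the CYP81F family then hydroxylate the indole ring, and MYB34, MYB51 and MYB122, together with MYC-type partners that are repressed by JAZ proteins until jasmonate is perceived through COI1, activate the structural genes.

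The Col libraries held 7.80 M reads without Al and 6.93 M with it, and the coi1-2 libraries 7.42 M and 7.19 M. Wherever 4 values are given, they follow this order. Levels are RPKM, reads scaled by transcript length and library total, divided by trimmed-mean (TMM) factors between the libraries, because on the deposited RPKM the median locus stood -0.59 log2 units apart between the Col libraries and -0.32 between the coi1-2 libraries, with Al over without. Al was tested across the genotypes, and genotype across the treatments, with edgeR's quasi-likelihood test on read counts with Benjamini-Hochberg adjustment and a threshold of 0.05. Ratios of 2 libraries have no replicate and no test: they are given as log2 of scaled RPKM + 0.5 with a 95% counting interval, and were called when at least 2-fold with an interval that excluded no change. The edgeR p-values measure only the spread left between these 4 libraries after an additive fit, and the intervals cover counting error only. With 1 residual and 160.8 prior degrees of freedom, that spread is taken almost wholly from all loci and not from the gene itself. In whole roots, fewer cells of a type and less RNA per cell cannot be told apart. COI1 itself was at 28.4, 26.1, 24.9 and 31.6 scaled RPKM, which does not check the genotype, since the allele is a point mutation.

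Markers of several root tissues and of green tissue were called with Al, and their part in the results for the 10 genes was not tested. Over all 16477 loci tested, 25.5% rose and 26.2% fell. Of 7 endodermis markers tested 6 fell and 0 rose, with a summed level of 741, 146, 775 and 196 scaled RPKM. Of 8 root hair markers 6 fell, with a summed level of 897, 721, 936 and 336 scaled RPKM. Of 4 root cap markers 2 fell, of 7 markers of dividing cells 5 fell and 1 rose, and of 5 xylem markers 1 fell. The xylem count was close to the share of all loci, and 4 root cap markers are too few to tell. All 10 green shoot markers rose, from 67.6 to 542 scaled RPKM summed in Col and from 85.5 to 292 in coi1-2. None of these markers had 0 reads in any library. Transcript length moved with Al too: the median edgeR log2 fold change was 0.74 for 4055 loci under 1000 bases and -0.82 for 4375 loci over 2000 bases. At the lengths of the 10 transcripts, 1357 bases (MYB34) to 1986 bases (CYP79B2), that trend ran from 0.09 to -0.43. With an offset for transcript length in the edgeR fit, 8 of the 10 green shoot markers rose. In that fit 7 endodermis, 7 root hair, 3 root cap, 5 dividing-cell and 0 xylem markers fell, and 0 of the dividing-cell markers rose.

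The 5' regions of both entry genes are shown first, because CYP79B2 and CYP79B3 catalyse the same step, took separate courses with Al and share a stretch of upstream sequence. Each is 250 bases before to 50 after the gene start of the RefSeq annotation of TAIR10.1, written 5' to 3' on the coding strand, at chr4:18524792-18525091 (+) for CYP79B2 and chr2:9488163-9488462 (+) for CYP79B3. Capitals mark the stretches that are identical in both.
CYP79B2: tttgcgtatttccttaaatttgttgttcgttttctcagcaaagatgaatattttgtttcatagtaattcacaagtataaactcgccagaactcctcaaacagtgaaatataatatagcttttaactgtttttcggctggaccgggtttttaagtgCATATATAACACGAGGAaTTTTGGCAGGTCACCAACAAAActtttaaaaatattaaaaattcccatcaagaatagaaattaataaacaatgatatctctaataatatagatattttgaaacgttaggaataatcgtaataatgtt
CYP79B3: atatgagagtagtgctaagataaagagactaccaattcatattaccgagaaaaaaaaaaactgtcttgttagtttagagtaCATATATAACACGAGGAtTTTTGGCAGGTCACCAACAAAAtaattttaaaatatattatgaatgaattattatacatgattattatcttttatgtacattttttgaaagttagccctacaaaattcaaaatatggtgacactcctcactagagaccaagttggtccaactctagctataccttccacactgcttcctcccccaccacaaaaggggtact
The capitals are parts of a block of 40 bases with 39 identical, which starts 95 bases before the gene start in CYP79B2 and 169 bases before it in CYP79B3. The single substitution is A18T, with the CYP79B2 base first and positions counted from 1 at the 5' end of the block. The stretch CATATATAACACGAGGA was found in 2 of the 27443 promoter windows of this size in the genome, on either strand, and so was TTTTGGCAGGTCACCAACAAAA. The coding sequences of both genes were 80.6% identical over 1695 aligned bases, and none of their windows of 50 bases was shared with another transcript.

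The 5' regions of CYP81F2 at chr5:23187590-23187889 (+) and of MYB122 at chr1:27855328-27855627 (+) are shown because these were the genes of the 10 that rose with Al. In CYP81F2 the capitals mark W-boxes (TTGACC or TTGACT on either strand), and in MYB122 a G-box (CACGTG).
CYP81F2: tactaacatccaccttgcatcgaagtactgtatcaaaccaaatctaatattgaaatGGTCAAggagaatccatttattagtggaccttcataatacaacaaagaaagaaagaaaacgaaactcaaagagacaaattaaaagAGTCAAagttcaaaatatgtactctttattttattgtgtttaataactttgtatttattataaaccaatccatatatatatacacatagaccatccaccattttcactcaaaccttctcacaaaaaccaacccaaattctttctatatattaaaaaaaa
MYB122: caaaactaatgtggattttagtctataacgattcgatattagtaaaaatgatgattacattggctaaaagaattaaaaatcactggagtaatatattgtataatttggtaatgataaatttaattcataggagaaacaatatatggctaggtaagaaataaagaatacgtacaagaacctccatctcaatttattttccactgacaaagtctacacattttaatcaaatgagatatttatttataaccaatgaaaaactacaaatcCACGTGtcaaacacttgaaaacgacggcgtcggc
W-boxes were in 32.4% and G-boxes in 7.68% of the 27443 windows. Among the 10 genes, CYP81F2 and SUR1 held a W-box, and MYB122 and SUR1 a G-box. The MYB box ACCNAAC, in 17.2% of windows, was found in SUR1 alone among the 10, and the CAMTA box ACGCGT, in 2.1% of windows, in none of them. The motifs do not overlap one another in these windows, and a match or its absence describes the letters in the window only.

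With Al, CYP81F2 and MYB122 rose and CYP79B3 and MYB34 fell over both genotypes, while the other 6 genes did not pass the test. The 2 of 10 that rose stand against 25.5% of the 16477 loci tested, and the 2 that fell against 26.2%, so the share of the 10 genes in each direction was close to that of all loci. Their median log2 fold change was -0.18, against -0.03 for all loci tested. CYP81F2 and MYB122 lay higher in both libraries with Al than in both without, as did 37.9% of 17514 loci, and CYP79B3, CYP83B1, CYP81F4 and MYB34 lay lower in both, as did 38.1% of loci. The CYP79B pair, the CYP81F pair and the MYB trio each held genes that passed the test and genes that did not.

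Positions of the genes are those of the deposited files, whose build is not given in the sources. RefSeq places the start of several genes upstream of these.

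**Figure D1:**
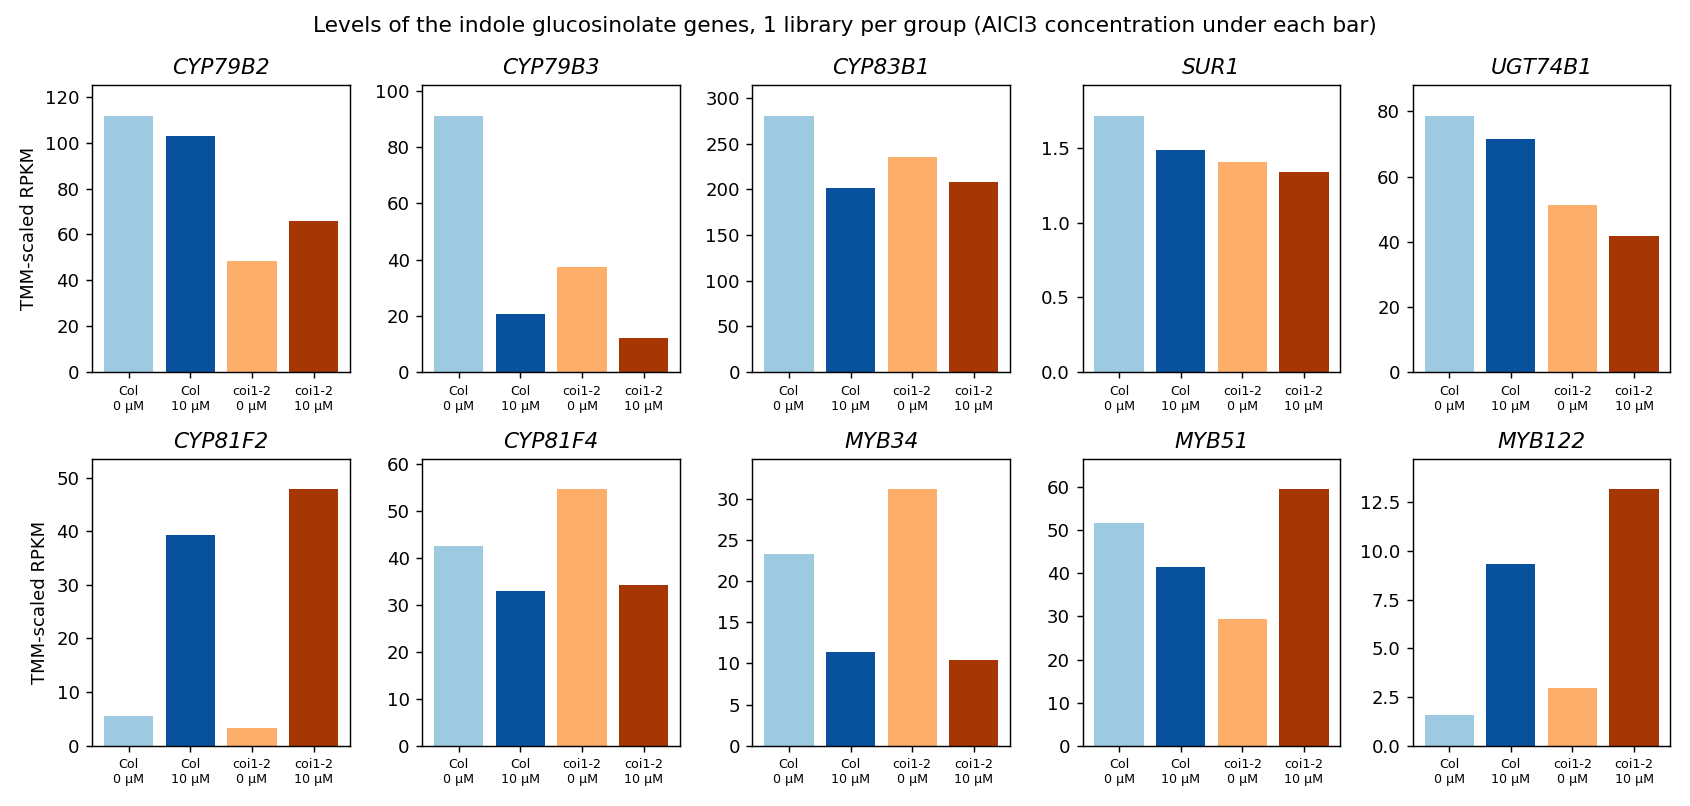
TMM-scaled RPKM (y axis, from 0, a scale for each gene) of the 10 genes in the 4 libraries, with the AlCl3 concentration in µM under each bar; each bar is 1 library, so there is no error bar. CYP81F2 and MYB122 stand higher in both libraries with Al, CYP79B3 and MYB34 lower, and CYP79B2 and UGT74B1 lower in both coi1-2 libraries.

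CYP79B2 (chr4:18525246-18527579, + strand), one of the 2 enzymes that make indole-3-acetaldoxime, was at 112, 103, 48.3 and 65.9 scaled RPKM. Both Col libraries lay above both coi1-2 libraries, and the libraries with Al lay among those without it. CYP79B3 (chr2:9488554-9491187, + strand), which catalyses the same step, was at 91.2, 20.6, 37.3 and 12 scaled RPKM. Both libraries with Al lay below both without Al, and within each treatment the coi1-2 library was the lower one.

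The edgeR log2 fold change with Al was -1.89 (SE 0.29, adjusted p = 1.67e-08) for CYP79B3 and 0.16 (SE 0.28, adjusted p = 0.656) for CYP79B2. CYP79B3 was 4.33-fold lower with Al in Col (log2 ratio -2.12, interval -2.36 to -1.93) and 3.02-fold lower in coi1-2 (-1.59, -1.90 to -1.38). The call for CYP79B3 was lost when Col without Al was left out (-1.20, adjusted p = 0.0581). CYP79B2 had a log2 ratio of -0.12 (-0.23 to -0.01) in Col and 0.44 (0.31 to 0.59) in coi1-2. With an offset for transcript length in the edgeR fit, CYP79B2 passed the test as higher with Al (0.58, adjusted p = 0.00759).

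The ratio of both genes within a library does not depend on the scaling between libraries. CYP79B2 stood at 1.23 times the RPKM of CYP79B3 in Col without Al (interval 1.15 to 1.31) and at 4.98 times with Al (4.29 to 5.82). In coi1-2 the ratio was 1.3 (1.17 to 1.44) without Al and 5.49 (4.61 to 6.57) with Al. The intervals of the libraries with Al did not reach those without, and the genotypes overlapped within each treatment. With 2 libraries against 2, the smallest two-sided p of an exact permutation test is 0.333, so no test is given. The summed level of both genes was 203, 124, 85.6 and 77.9 scaled RPKM, lower in both coi1-2 libraries than in either Col library. On deposited RPKM the sums were 242, 93.1, 102 and 72.3, and the genotypes overlapped.

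**Figure D2:**
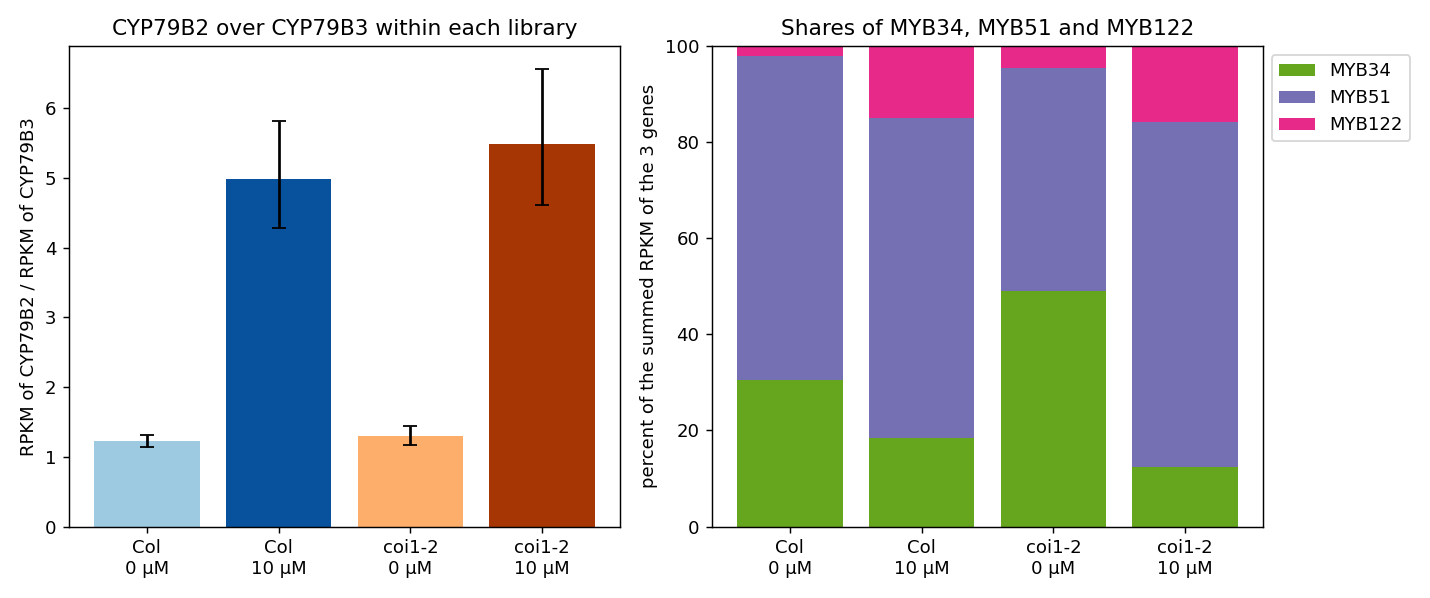
Left, RPKM of CYP79B2 divided by RPKM of CYP79B3 in each of the 4 libraries, with 95% exact counting intervals as error bars; right, the percent of the summed RPKM of MYB34, MYB51 and MYB122 taken by each gene. The CYP79B2 to CYP79B3 ratio is 4.98 and 5.49 with Al against 1.23 and 1.3 without, and the MYB122 share is 15% and 15.9% with Al against 2.04% and 4.64% without.

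CYP83B1 (chr4:15273471-15275310, - strand), the P450 that commits the aldoxime to glucosinolates, had the highest listed level of the 10 per length in every library, at 281, 201, 236 and 209 scaled RPKM. The listed levels of SUR1 and CYP81F4 rest on a small covered part of the transcript, so they cannot be ranked against it. With the covered bases in place of the full length, deposited RPKM was 338, 153, 286 and 195 for CYP83B1 and 304, 148, 391 and 193 for CYP81F4. Both libraries with Al lay below both without Al. The log2 ratio with Al was -0.48 (-0.56 to -0.40) in Col and -0.18 (-0.25 to -0.10) in coi1-2, under 2-fold, and the edgeR value of -0.33 (SE 0.29, adjusted p = 0.358) did not pass the test. On deposited RPKM, without the scaling, the ratio in Col was -1.14 and past 2-fold.

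SUR1 (chr2:8877960-8880388, - strand), the C-S lyase of the core pathway, is listed with 27, 13, 21 and 15 reads and 1.72, 1.49, 1.41 and 1.34 scaled RPKM. Reads had to be unique to a transcript, and SUR1 has 2 listed isoforms, of which AT2G20610.1 was covered over 5.27% to 5.51% of its length. Reads shared by the isoforms appear to be missing, so its listed level says little about the gene. The edgeR log2 fold change with Al was -0.15 (SE 0.49, adjusted p = 0.822).

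UGT74B1 (chr1:8525435-8527087, - strand), the S-glucosyltransferase, was at 78.7, 71.6, 51.1 and 41.9 scaled RPKM. Both coi1-2 libraries lay below both Col libraries, though on deposited RPKM Col with Al (54.0) lay between coi1-2 without Al (61.2) and with Al (38.9). With Al the log2 ratio was -0.13 (-0.28 to 0.01) in Col and -0.28 (-0.46 to -0.11) in coi1-2, and the edgeR value was -0.21 (adjusted p = 0.547).

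CYP81F2 (chr5:23187840-23189857, + strand), the ring hydroxylase that leads to the indole glucosinolates used in defence against pathogens, was at 5.61, 39.3, 3.40 and 47.8 scaled RPKM (90, 354, 52 and 550 reads). Both libraries with Al lay far above both without it. It rose with an edgeR log2 fold change of 3.29 (SE 0.32, adjusted p = 1.20e-17), the largest change among the 10. The log2 ratio was 2.71 (2.47 to 3.16) in Col, 6.52-fold, and 3.63 (3.40 to 4.25) in coi1-2, 12.4-fold.

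CYP81F4 (chr4:17590772-17592920, + strand), which is needed for hydroxylation at the ring nitrogen, was at 42.6, 32.9, 54.6 and 34.3 scaled RPKM, with both libraries with Al below both without. The edgeR log2 fold change of -0.52 (SE 0.28, adjusted p = 0.109) did not pass the test. Its reads covered 288 of 1722 transcript bases (16.7%) in Col without Al, whereas the median transcript of 20 to 100 RPKM there was covered over 94.4%. In TAIR10.1 an antisense locus, AT4G37409, lies over it at chr4:17590769-17592911 (-) and shares 1519 of its 1722 exon bases. AT4G37409 is among the listed loci and reads had to be unique to a transcript, so reads from the shared bases appear to be missing. The CYP81F4 level thus rests on a small part of the transcript, and reads of either strand in the shared bases cannot be told apart. CYP81F2 stood at 0.132 times the listed CYP81F4 level in Col and at 0.0622 times in coi1-2 without Al, and at 1.20 and 1.39 times with Al. That order with Al holds for the listed levels only, since most of the CYP81F4 transcript had no reads counted under that rule.

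**Figure D3:**
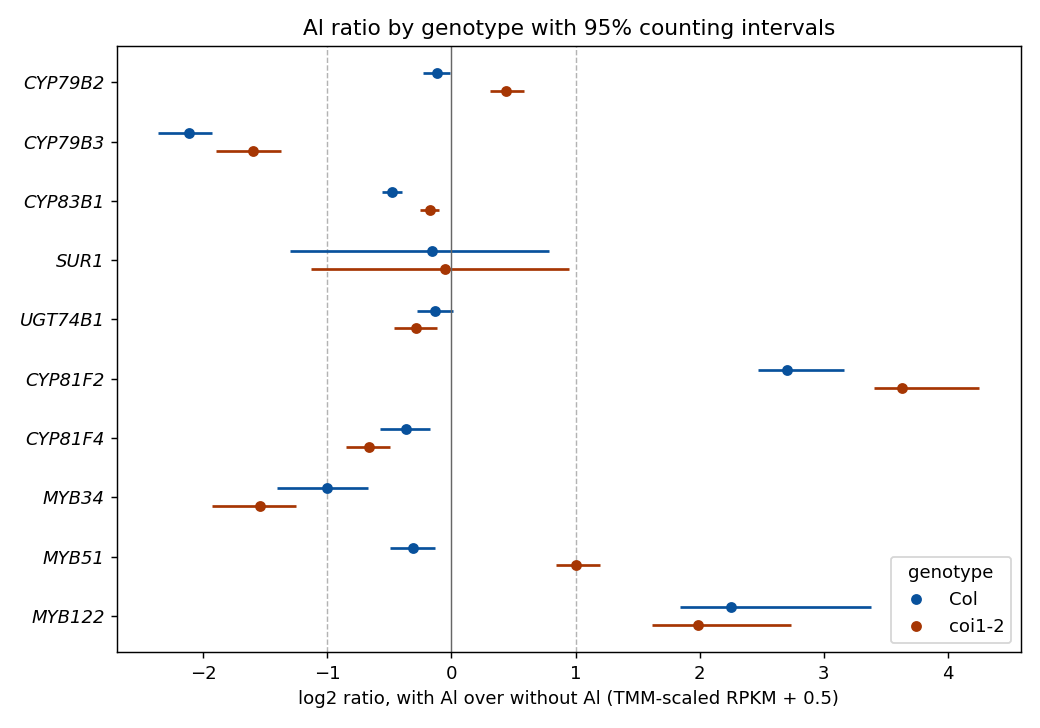
Log2 ratio of TMM-scaled RPKM + 0.5, with Al over without Al (x axis), for each of the 10 genes (y axis) in Col and in coi1-2; points are ratios of 2 libraries, horizontal lines 95% exact counting intervals and dashed lines 2-fold. CYP81F2 and MYB122 lie to the right of 2-fold in both genotypes, CYP79B3 to the left, and MYB51 lies at -0.31 in Col and at 1.01 in coi1-2.

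The 3 MYB genes took separate courses with Al. MYB34 (chr5:24494691-24496351, + strand), the factor best known for control of indole glucosinolates in roots, was at 23.3, 11.4, 31.1 and 10.4 scaled RPKM. Both libraries with Al lay below both without. It fell with an edgeR log2 fold change of -1.31 (SE 0.30, adjusted p = 0.000121), a call that was lost without coi1-2 without Al (-1.11, adjusted p = 0.104). The log2 ratio was -0.999 (-1.40 to -0.67) in Col, 1.998-fold lower and so just short of the 2-fold rule, and -1.54 (-1.93 to -1.26) in coi1-2.

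MYB122 (chr1:27855699-27857534, + strand), a factor with a minor part in unstressed plants, was at 1.56, 9.32, 2.94 and 13.2 scaled RPKM (20, 67, 36 and 121 reads). Both libraries with Al lay above both without. It rose with an edgeR log2 fold change of 2.34 (SE 0.37, adjusted p = 2.94e-08). The ratio was 4.77-fold in Col (log2 2.25, interval 1.84 to 3.38) and 3.96-fold in coi1-2 (1.99, 1.61 to 2.74).

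MYB51 (chr1:6389411-6391267, + strand), known as a stress-inducible regulator of the pathway, was at 51.7, 41.6, 29.3 and 59.5 scaled RPKM (796, 359, 431 and 657 reads). The highest and the lowest library were both coi1-2, with Al and without it, and the Col libraries lay between them. This order rests on the scaling: on deposited RPKM, at 61.7, 31.3, 35.1 and 55.2, the coi1-2 libraries lay between the Col libraries. The log2 ratio with Al was -0.31 (-0.50 to -0.13) in Col and 1.01 (0.84 to 1.20) in coi1-2, so MYB51 was 1.24-fold lower in one genotype and 2.01-fold higher in the other. Over both genotypes the edgeR value of 0.35 (SE 0.29, adjusted p = 0.313) did not pass the test, and with the length offset it was 0.49 (adjusted p = 0.0330) and did.

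Within a library, MYB34 made up 30.5%, 18.3%, 49.1% and 12.5% of the summed RPKM of the trio. MYB51 took 67.5%, 66.7%, 46.3% and 71.7%. MYB122 took 2.04%, 15%, 4.64% and 15.9%. MYB51 was thus the most abundant of the 3 per length in every library but coi1-2 without Al, where its ratio to MYB34 was 0.943 (0.819 to 1.09) and the counting interval included equality. The summed level of the 3 genes, 76.6, 62.3, 63.4 and 83.0 scaled RPKM, did not separate the treatments or the genotypes. Coding sequences of the trio were 63.6% to 73.5% identical in pairs, and none of their windows of 50 bases was shared.

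In ratios of 2 libraries, 2 of the 10 genes were called higher with Al in Col, CYP81F2 and MYB122, where 22.1% of 17514 loci were, and 1 was called lower, CYP79B3, where 20.5% of loci were. In coi1-2, 3 were called higher, with MYB51 added, and 2 lower, CYP79B3 and MYB34, against 14.7% of loci in each direction. The MYB51 call in coi1-2 was not made with a pseudocount of 1 (log2 ratio 0.99) or on deposited RPKM (0.65).

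The response to Al differed most between the genotypes for MYB51. Its log2 ratio in coi1-2 minus that in Col was 1.32 (counting interval 1.07 to 1.57), the single call of 1 log2 unit or more among the 10, where 2.73% of 17514 loci were called higher and 4.31% lower. The value ran from 1.21 to 1.61 under the alternative scalings, pseudocounts and length correction. An Al interval below 0 in Col and above 0 in coi1-2 was found for 147 loci, 0.839% of all, and MYB51 and CYP79B2 were among them. The reverse was found for 0.6% of loci and for none of the 10. The difference was 0.92 (0.40 to 1.45) for CYP81F2, 0.56 (0.39 to 0.74) for CYP79B2, 0.52 (0.19 to 0.85) for CYP79B3 and -0.54 (-1.02 to -0.06) for MYB34. With 1 library per group, no difference of responses could be tested.

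Between the genotypes without Al, both entry genes were lower in coi1-2. CYP79B2 was 2.30-fold lower (log2 ratio -1.20, interval -1.33 to -1.09) and CYP79B3 2.43-fold lower (-1.28, -1.43 to -1.16). These 2 of 10 lie above the 1.27% of loci called lower, and none of the 10 was among the 1.34% called higher. MYB51 (-0.81), CYP81F2 (-0.65) and UGT74B1 (-0.62) were lower by less than 2-fold, and MYB122 (0.74), MYB34 (0.41) and CYP81F4 (0.36) higher by less.

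With Al, no gene of the 10 was called between the genotypes, where 4.65% of loci were called lower and 3.04% higher in coi1-2. UGT74B1 (-0.77), CYP79B3 (-0.76) and CYP79B2 (-0.64) had the lowest log2 ratios, and MYB51 (0.51) and MYB122 (0.48) the highest. CYP79B2, SUR1 and UGT74B1, 3 of the 10, were lower in both coi1-2 libraries than in both Col libraries, as were 6.67% of loci, and none was higher in both, as were 7.07% of loci. On deposited RPKM this held for CYP79B2 alone, since SUR1 and UGT74B1 overlapped. SUR1 has few reads, and its counting intervals between the genotypes included no change without Al (-1.19 to 0.58) and with it (-1.32 to 1.04).

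Over both treatments edgeR called none of the 10 for genotype, against 0.431% of the 16477 loci called lower and 0.158% called higher in coi1-2. CYP79B3 had a log2 fold change of -1.05 (SE 0.29, adjusted p = 0.0593), CYP79B2 of -0.93 (SE 0.29, adjusted p = 0.154) and UGT74B1 of -0.70 (SE 0.28, adjusted p = 0.449). These 3 had an unadjusted p under 0.05, as did 7.93% of loci, and the same 3 of 10 did with DESeq2 (2.89% of loci) and limma-trend (7.36%), which called 0 after adjustment. With Al left out of the fit none of the 10 had an unadjusted p under 0.05, nor in 3 of the 4 fits without 1 library; the one without coi1-2 with Al had CYP81F2. With the length offset, edgeR called the 3 genes lower in coi1-2, CYP79B3 at -1.17 (adjusted p = 1.56e-05), CYP79B2 at -1.07 (adjusted p = 4.99e-05) and UGT74B1 at -0.72 (adjusted p = 0.0240). In that fit 4 of the 10 had an unadjusted p under 0.05 for genotype, as did 8.82% of loci. Over the alternatives that keep all libraries, this fit included, 0 to 125 loci were called lower in coi1-2, against 71 in the main fit.

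Genes next to the 10 in the pathway were grouped into lists by role, which are described by counts over the genes tested with edgeR, beside a background of 25.5% rising and 26.2% falling. This background is that of the fit without the length offset. Of 6 other core enzymes 3 rose and 0 fell: the sulfotransferase SOT16 (1.23, adjusted p = 0.000208) and the glutathione transferases GSTF10 (1.19, adjusted p = 0.00121) and GSTF9 (0.91, adjusted p = 0.00530). With the length offset 2 of these 6 rose and 1 fell.

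Of 7 further ring-modification genes 4 rose and 1 fell, with the same counts under the length offset. The indole glucosinolate O-methyltransferase genes IGMT4 (1.75, adjusted p = 0.01) and IGMT1 (1.24, adjusted p = 0.000183) rose and IGMT5 (-1.33, adjusted p = 4.91e-05) fell. IGMT4 had only 6, 13, 7 and 16 reads. IGMT1 was also lower in coi1-2 over both treatments (-1.11, adjusted p = 0.0417), and no other gene on the pathway lists was called for genotype in that fit. With the length offset APK2, an adenylyl-sulfate kinase gene (-0.67, adjusted p = 0.0482), and BCAT4 of the aliphatic pathway (-0.70, adjusted p = 0.0332) were called lower in coi1-2 too. Both were named after their values were seen. IGMT1 to IGMT4 are near-identical neighbours, so reads may be lost or split among them.

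Of 7 tested genes of other regulators 0 rose and 2 fell, MYC4 (-1.84, adjusted p = 1.25e-07) and MYC2 (-1.63, adjusted p = 7.29e-07), which encode partners of the MYB factors. Both transporters that load glucosinolates into the phloem, GTR2 (-2.03, adjusted p = 2.67e-09) and GTR1 (-1.93, adjusted p = 5.22e-08), fell, and these were 2 of 4 transport genes. Of 11 breakdown genes tested 2 rose and 6 fell. NIT2, a nitrilase gene, rose by 6.12 (adjusted p = 2.06e-33) and the nitrile specifier gene NSP5 by 3.72 (adjusted p = 1.59e-19), while NSP4 fell (-2.97, adjusted p = 1.31e-15). NIT2 has near-identical neighbours, and its reads are uncertain in the same way.

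All 6 tested genes of the camalexin and indole-carbonitrile branch, which draws on the same aldoxime, rose, with a median of 3.73 against -0.03 for all loci. The other 2 of the 8 listed, CYP71A13 (0, 0, 0 and 2 reads) and CYP82C2 (0, 10, 4 and 1 reads), were below the filter and not tested. Both were named after their values were seen. GSTF6 (6.28, adjusted p = 1.91e-34), AT1G26380, a berberine-bridge-type oxidase gene (4.88, adjusted p = 1.82e-26), and GSTU4 (4.13, adjusted p = 4.02e-16) had the largest changes. Of 7 tryptophan synthesis genes 3 rose and 0 fell, ASA1 (1.67, adjusted p = 0.00445), TSA1 (1.40, adjusted p = 1.70e-05) and ASB1 (1.19, adjusted p = 0.0178). ASA1 had 9, 19, 11 and 23 reads and ASB1 29, 31, 15 and 32, so their changes rest on few reads. With the length offset 5 of the 7 tryptophan genes rose, and 1 gene rose in each of the regulator and transport lists. Of 12 aliphatic glucosinolate genes, which use methionine, 0 rose and 8 fell, among them MAM1 (-1.82, adjusted p = 5.29e-08), the regulator MYB28 (-1.53, adjusted p = 0.00782) and CYP79F2 (-1.25, adjusted p = 0.000127). MYB28 rests on few reads as well, 36, 4, 39 and 14.

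**Figure D4:**
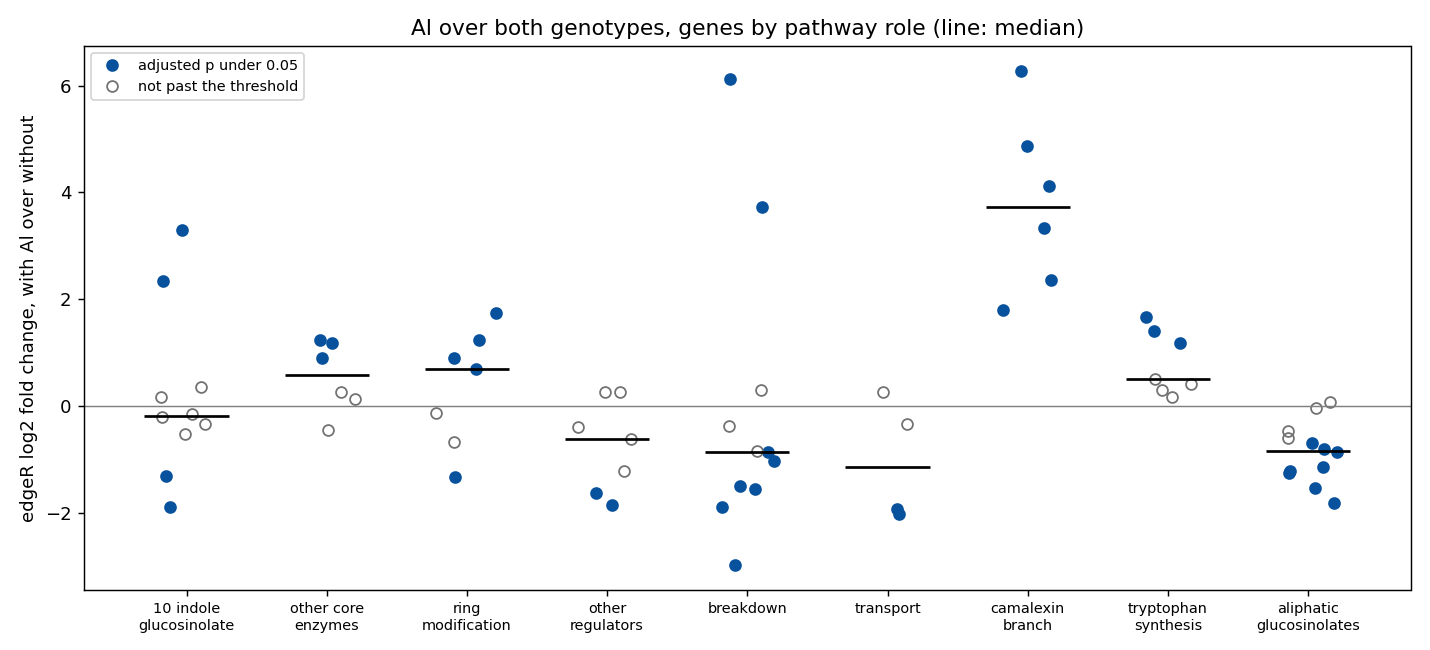
EdgeR log2 fold change with Al over both genotypes (y axis) for the tested genes of each pathway role (x axis); filled points passed an adjusted p of 0.05, open points did not, and the black line is the median of the role. The 10 indole genes scatter around -0.18, the camalexin branch lies above 0 throughout with a median of 3.73, and of the aliphatic genes 8 of 12 fell.

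The pattern of each of the 10 genes over the 4 libraries was set beside that of the 11077 loci with a mean of at least 5 RPKM, by the Euclidean distance of mean-centred log2 values. With 4 libraries many loci lie close, and the distance is a description. The nearest loci were BT5 (0.0791), MYB23 (0.0933) and SD2-5 (0.166) for MYB51, and AT5G39670 (0.214), PHT3;2 (0.244) and HVA22B (0.278) for CYP81F2. None of the 10 was among the 3 loci nearest to another of them. For CYP79B2 the nearest of the 10 was UGT74B1 (rank 63, distance 0.564), for CYP79B3 it was MYB34 (rank 785, distance 1.40) and for CYP81F2 it was MYB122 (rank 600, distance 1.44).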

How the data were processed

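Each library came as 1 table per transcript. The deposited counts are unique reads of each transcript, per the file headers, and add up to the total named there. The deposited RPKM are these counts divided by transcript length and library total, as the file headers say, and recomputing them gave the same values. Coverage was deposited as a percent of transcript length with reads. Libraries were made from poly(A) RNA with random hexamers and no step that keeps strand, per the labels' protocols; aligner and build: not given in the sources used here. Printed sequences and overlaps come from the RefSeq annotation of TAIR10.1, where 22462 of 22469 loci overlapped their file position on the same strand.

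Counts and RPKM were summed over isoforms (26912 transcripts, 23381 loci), and an absent transcript was taken as 0. Reads shared between isoforms appear to be missing: the median was 0.986 RPKM over 3089 loci listed with several isoforms and 5.55 RPKM over those with 1. Counts were tested with edgeR 4.0.16 (R 4.3.3; TMM, filterByExpr, additive terms for Al and genotype, 1 residual and 160.8 prior degrees of freedom, Benjamini-Hochberg over 16477 loci); SE is the log2 fold change over the square root of F. TMM factors were 1.194, 0.754, 1.197 and 0.929, and RPKM were divided by them. Ratios of 2 libraries used a pseudocount of 0.5 (ratios of genes with few reads are understated) over 17514 loci with at least 1 RPKM in a library. Their 95% Clopper-Pearson intervals have no pseudocount and can lie off-centre; the interval of a difference of responses is a normal approximation. The labels name no separate cultures. Both procedures were tested on simulated data. Alternatives used DESeq2 1.42.0, limma 3.58.1, other scalings, filters, pseudocounts and a length correction.

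The 10 genes, the other lists and the length correction were chosen with earlier results of these data known. The 10 genes are always named; of each other list, up to 3 genes with the largest change among those past the threshold are named per contrast, marker genes excepted.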

Additional observations from a re-analysis of the deposited data

Results flagged for a closer look

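MYB51 had a log2 ratio with Al of -0.31 (counting interval -0.50 to -0.13) in Col and of 1.01 (0.84 to 1.20) in coi1-2, so its ratio lay on opposite sides of no change in the genotypes. The response in coi1-2 minus that in Col was 1.32, and the difference was not tested, because each group is 1 library. With the length trend removed the ratio was -0.08 in Col and 1.13 in coi1-2, and on deposited RPKM it was -0.97 and 0.65. The highest and lowest MYB51 level, 59.5 and 29.3 scaled RPKM, both came from coi1-2, as they did for CYP81F2 and MYB34. On deposited RPKM the highest and lowest MYB51 level, 61.7 and 31.3, both came from Col.

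CYP79B2 had a log2 ratio of -0.12 (-0.23 to -0.01) in Col and of 0.44 (0.31 to 0.59) in coi1-2, also on opposite sides. The response in coi1-2 minus that in Col was 0.56, and the difference was not tested. The opposite sides do not hold under each alternative: with the length trend removed the ratio was 0.41 in Col and 0.74 in coi1-2, and on deposited RPKM it was -0.78 and 0.08.

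The summed level of green shoot markers also differed in its change with Al between the genotypes, from 67.6 to 542 scaled RPKM in Col and from 85.5 to 292 in coi1-2, and its part in either difference was not tested.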

How the results depend on the processing

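No paired analysis was possible because each group has 1 library and the labels give no replicate numbers. Of 124 counts over the 10 genes under alternatives, 116 stayed within 1.5 times the main count. With the length offset edgeR called 4 of the 10 as rising with Al and 3 as lower in coi1-2, in place of 2 and 0. In that fit 6 of the 10 had an unadjusted p under 0.05 for Al, as did 56.3% of loci. For genotype 4 of the 10 did, as did 8.82% of loci. Over the alternatives that keep all libraries, this fit included, 3149 to 4444 loci were called rising with Al and 0 to 125 lower in coi1-2. Leaving out each library in turn, with the other factor dropped because no residual degrees of freedom remain otherwise, gave 1 to 3 genes falling with Al, 2 rising and 0 called for genotype. Genes called lower with Al in Col numbered 2 with a pseudocount of 0.1, 2 with the length trend removed and 4 on deposited RPKM, in place of 1, and 2 differences of responses were called on deposited RPKM, with CYP81F2 at 1.23 added. The median difference of responses over all loci was 0.25 on deposited RPKM, against -0.0049 with TMM scaling. Over the alternatives 308 to 1227 loci were called higher in that difference, against 478 in the main ratios. Among edgeR fits that keep all libraries, the directions that turned were those of values not called: SUR1 with Al was 0.00696 with the length offset and 0.0673 from its isoform with the most reads, and CYP81F2 for genotype was 0.19 with Al left out of the fit. Of 395 ratios of 2 libraries or differences under alternatives, 13 had the other sign, 0 of them called. SUR1 gave 7 of these and the others were CYP79B2 (0.41) and UGT74B1 (0.02) with Al in Col, CYP83B1 (-0.11) and CYP81F4 (-0.09) between genotypes with Al, each with the length trend removed, and on deposited RPKM MYB34 between genotypes with Al (0.15) and the UGT74B1 difference of responses (0.15). Among fits without 1 library, the log2 fold change with Al ran from -0.42 to 0.80 for CYP79B2, from -0.62 to 0.16 for UGT74B1 and from -0.0407 to 0.78 for MYB51. That for genotype ran from -2.23 to 0.26 for CYP79B3, -0.34 to 0.14 for CYP83B1, -2.74 to 2.19 for CYP81F2, -0.14 to 0.51 for CYP81F4, -0.75 to 0.86 for MYB34, -0.69 to 0.35 for MYB51 and -0.89 to 2.36 for MYB122. CYP81F4 passed the test with Al without coi1-2 with Al (-0.54, adjusted p = 0.0499). Except for the fits named above, the causes were not tested. Over all loci, edgeR called 4198 as rising and 4320 as falling with Al, and 3149 to 4444 and 2515 to 4225 under the alternatives that keep all libraries. Without 1 library the counts ran from 1755 to 5008 and from 1743 to 4814. On deposited RPKM 2001 loci were called higher and 6264 lower with Al in Col, against 3879 and 3599 with TMM scaling, and 1641 and 4064 in coi1-2, against 2579 and 2575. For genotype, 0 to 76 loci were called higher and 0 to 125 lower, against 26 and 71. SUR1, with 13 to 27 reads, limits what its ratios can show.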

Other observations

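Several of the 10 genes lie near other genes of the glucosinolate pathways. By the positions in the deposited files, the kinase gene APK2, which supplies sulfate donors, ends 3677 bases before CYP79B2, and the sulfotransferase genes SOT18 and SOT16 lie 5374 and 6810 bases from MYB122. CYP81F3 and CYP81F1 lie 4411 and 4189 bases from CYP81F4. With Al, SOT16 rose (edgeR log2 fold change 1.23, adjusted p = 0.000208), as did MYB122, whereas SOT18 between them fell (-0.69, adjusted p = 0.0327). CYP81F3 rose (0.70, adjusted p = 0.0308), while CYP81F1 (-0.67, adjusted p = 0.0842) and APK2 (0.13, adjusted p = 0.713) did not pass the test. SOT18, CYP81F3, CYP81F1 and APK2 were named for their position after their values were seen.

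The step ratios within libraries were also uneven. CYP83B1 stood at 2.51 times the RPKM of CYP79B2 in Col without Al (counting interval 2.38 to 2.65), 1.96 times in Col with Al (1.81 to 2.11), 4.88 times in coi1-2 without Al (4.52 to 5.26) and 3.17 times in coi1-2 with Al (2.93 to 3.42). The ratio was higher in both coi1-2 libraries than in both Col libraries, and lower with Al in each genotype. MYB122 stood at 0.0668 and 0.0946 times the RPKM of MYB34 without Al, in Col and coi1-2, and at 0.815 and 1.27 times with Al.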
